A study of Homo sapiens with 45 samples.

Results

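The 50 genes described here encode proteins of the mitotic spindle, the kinetochore and cytokinesis. They were chosen by function from a list of gene symbols, and each matched 1 row among the 60624 genes listed in each of 4 count tables. RNA was sequenced from 45 libraries of T47D, a luminal breast cancer cell line that carries the oestrogen receptor, in 15 groups of 3. Cells of the shRNA table carried a control hairpin (shCtrl), in normoxia or hypoxia, or a hairpin against the zinc finger and homeobox factor ZHX2 (shZHX2), in hypoxia alone. In the hexanediol table, hypoxic cells were a control (Ctrl, with no vehicle named) or were given 0.5% or 1% 1,6-hexanediol, an alcohol that disturbs condensates, for 24 h. In the rescue table, hypoxic shCtrl cells carried a vector, and hypoxic shZHX2 cells carried the vector or 1 of 3 forms of ZHX2, named WT, PA and SA by the labels. Groups of the sgRNA table, all in hypoxia, were sgCtrl, sgZHX2, teton_control and teton_sgZHX2. Every group except shCtrl in normoxia was therefore hypoxic, and the protocol describes lentiviral infection with antibiotic selection. No source used here gives the changes behind PA and SA, the guide and hairpin sequences, whether lines were clones, the oxygen level or how long hypoxia lasted. The stated aims concerned hypoxia-induced genes that need ZHX2 and the expression that follows when phase separation is disrupted.

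Mitosis is run by CDK1 bound to cyclins A and B, and by the Aurora and Polo-like kinases, while FOXM1 activates many of the genes concerned. Kinetochores assemble on centromeres and attach chromosomes to spindle microtubules, the checkpoint delays anaphase until they are attached, and the anaphase-promoting complex then marks securin and cyclin B for destruction. Motor proteins shape the spindle, and a contractile ring divides the cell. Most of these genes are transcribed late in the cell cycle, so their RNA is low in resting cells. In bulk RNA, fewer cells in mitosis and less RNA per mitotic cell cannot be told apart.

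Late cell cycle promoters are known for 2 elements: the cell cycle homology region TTTGAA, which binds MuvB complexes, and the CCAAT box, which binds NF-Y. Promoter sequences from RefSeq on GRCh38.p14, each running from 250 bases before the gene start to 50 after it, matched 41 of the 50 genes. For 7 of these with more than 1 promoter the first listed was used, whereas the comparison set counts every promoter. TTTGAA was found on either strand in 30 of the 41 (73.2%), against 15.2% of 35116 promoters of the same length. CCAAT was found in 30 (73.2%, against 34.6%), and at least 2 copies of it in 20 (48.8%, against 10.8%). Both motifs stood together in 22 (53.7%, against 5.90%), whereas the E2F-like letters GCGGGAA were found in 4 (9.76%, against 6.55%). Matches can overlap, as CCAAT does with its own reverse complement in HMMR and with TTTGAA in MKI67 below. The 120 bases before the start are shown for 6 genes on which the results turn, with matches to TTTGAA and CCAAT on either strand in capitals. HMMR and ANLN gave the largest falls after ZHX2 knockdown in the rescue table, PLK1 and MKI67 were raised little or not at all by WT, and CCNB2 and CDC20 are known cell cycle promoters. All 6 stretches hold TTTGAA, which is not so for every gene. KIF20A, which had the next largest fall, held CCAAT but no TTTGAA in its 120 bases, and CCNB1, CDK1 and TOP2A had no TTTGAA there either.
HMMR (chr5:163460512-163460631, plus strand): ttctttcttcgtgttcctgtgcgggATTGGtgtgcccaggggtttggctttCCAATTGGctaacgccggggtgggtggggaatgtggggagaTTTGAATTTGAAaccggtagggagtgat
ANLN (chr7:36389742-36389861, plus strand): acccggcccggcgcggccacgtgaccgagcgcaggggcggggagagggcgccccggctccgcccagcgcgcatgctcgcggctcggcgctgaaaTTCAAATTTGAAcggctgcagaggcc
CCNB2 (chr15:59105026-59105145, plus strand): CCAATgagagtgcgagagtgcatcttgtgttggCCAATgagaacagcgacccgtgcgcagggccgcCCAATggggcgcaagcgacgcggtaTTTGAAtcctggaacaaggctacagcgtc
CDC20 (chr1:43358861-43358980, plus strand): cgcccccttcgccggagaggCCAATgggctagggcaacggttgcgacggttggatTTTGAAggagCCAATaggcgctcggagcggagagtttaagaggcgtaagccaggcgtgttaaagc
PLK1 (chr16:23678769-23678888, plus strand): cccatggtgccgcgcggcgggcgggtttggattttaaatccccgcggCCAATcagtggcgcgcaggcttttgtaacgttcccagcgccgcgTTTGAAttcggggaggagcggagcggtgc
MKI67 (chr10:128126424-128126543, minus strand): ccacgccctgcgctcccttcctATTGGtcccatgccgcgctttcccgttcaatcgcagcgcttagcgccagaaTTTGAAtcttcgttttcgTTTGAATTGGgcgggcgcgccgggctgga
The HMMR stretch held TTTGAA 28 and again 22 bases before the start, counted to the motif's first base. CCNB2 and PLK1 each held it 29 bases before the start, and CCNB2 held CCAAT 120, 87 and 54 bases before it. MKI67 held both motifs as well. These matches describe the letters of the promoters and do not show that a factor was bound. With sgZHX2 the median log2 fold change was -1.24 over 29 genes with TTTGAA and -1.26 over 11 without it. It was -1.37 and -1.53 with shZHX2 and vector, and -1.28 and -1.25 with 0.5% hexanediol. In hypoxia it was -2.76 and -0.70. Hypoxia values also moved with GC content, as given below, and the motif was not separated from GC content. These differences were not tested.

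Total counts ranged from 14111216 to 27217814 per library. ZHX2 RNA stood at 3.75 to 6.79 CPM (the share of a library's counts on the per-million scale, with library sizes scaled by TMM) in shZHX2 cells of the shRNA table and 16.4 to 21.6 CPM in their hypoxic controls. It stood at 6.24 to 7.27 CPM in shZHX2 vector cells, against 30.5 to 34.3 CPM in shCtrl vector cells and 53.6 to 82.9 CPM with the 3 ZHX2 forms. With guides it was not lower than in controls (43.8 to 51.3 CPM over the sgRNA table), which does not tell whether the guides edited it. All 10 luminal markers, KRT8 and GATA3 among them, exceeded 10 CPM in some library. None of 6 leukocyte markers did, and of 5 basal markers ACTA2 and MYLK did (up to 15.9 and 15.8 CPM) while KRT5, KRT14 and TP63 did not. Of 8 fibroblast and endothelial markers COL1A1 alone did, at 12.9 to 72.3 CPM. Whether the replicates were separate cultures is not in the labels; the p-values rest on the variation among libraries, which may be technical in part or whole.

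Of the 50 genes, 49 had enough counts to be tested in the shRNA, hexanediol and sgRNA tables and 48 in the rescue table. NUSAP1, a microtubule-bundling protein, had 0 to 10 counts per library everywhere and was not tested. PRC1, which bundles the central spindle, had 1 to 15 counts in the rescue table and was not tested there. In GENCODE 29, NUSAP1 shares 1787 exon bases with AC087721.2 and PRC1 shares 3181 with AC068831.7, both on the same strand; those 2 genes had 0 to 2 and 3 to 81 counts per library. BUB1B shares 457 with BUB1B-PAK6 and CENPA 138 with SLC35F6, again on the same strand. How reads lying on 2 genes were counted was not stated, so the levels of these 4 members are uncertain. The counting strand is not given either, and 17 of the 50 genes share exon bases with a gene on the other strand. Of the 50 genes, 10 (AURKA, BUB1, BUB3, CCNB2, CDC20, DLGAP5, MKI67, NCAPG, SMC4 and UBE2C, 2 of which are also among the 17) have a pseudogene that carries their name, and their counts could be split with it.

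Per length, the ubiquitin-conjugating enzyme gene UBE2C was the highest of the 50 in normoxic shCtrl cells, at 617 ± 18.02 TPM (TPM, a share of transcripts that accounts for gene length; mean ± SD, n = 3), followed by the checkpoint target CDC20 at 344 ± 3.89 TPM and cyclin B1 (CCNB1) at 261 ± 4.10 TPM. The kinetochore motor CENPE stood at 3.78 ± 0.330 TPM and was the lowest tested gene apart from PRC1, while the next genes up, KNL1 (7.38 ± 0.416 TPM) and KIF15 (7.44 ± 0.530 TPM), did not differ from each other beyond their spread. In sgCtrl cells UBE2C and the spindle assembly factor TPX2 shared the top (169 ± 2.80 TPM and 166 ± 2.18 TPM). In the hexanediol control the order differed, with TPX2 at 396 ± 9.27 TPM and the large kinetochore protein CENPF at 346 ± 19.7 TPM; TOP2A and SMC4 followed at 288 ± 8.14 TPM and 287 ± 12.9 TPM, within each other's spread. The CPM of the 50 genes summed to 3447 ± 38.7 in normoxic shCtrl cells, 2131 ± 26.0 in hypoxic shCtrl cells and 1252 ± 10.7 in hypoxic shZHX2 cells. In the hexanediol control it was 9016 ± 193.7, in the shCtrl vector cells 1579 ± 25.6 and in sgCtrl cells 2646 ± 14.2. Each table was normalised on its own, so differences in level between tables are given as description.

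**Figure D1:**
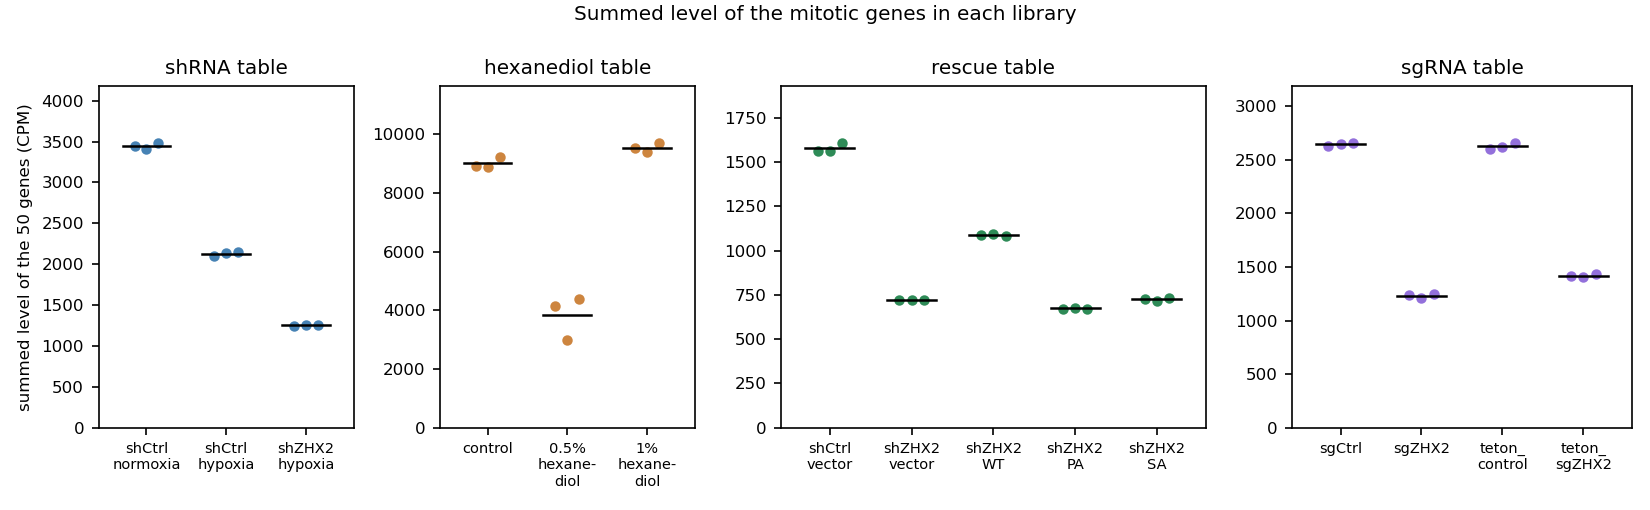
Summed CPM of the 50 genes in each library (points) with the mean of the 3 libraries of a group (line), 1 panel per table; each vertical axis starts at 0 and has its own scale. Libraries of a group lie close together except with 0.5% hexanediol, where the second library is the lowest, and the shZHX2 vector, PA and SA groups lie below WT.

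Hypoxia in shCtrl cells lowered most of these genes, and the largest falls were among the long kinetochore, kinesin, cytokinesis and chromosome structure genes. A gene was called where the edgeR quasi-likelihood test gave a Benjamini-Hochberg adjusted p under 0.05 over all genes of its table. Of 49 genes tested, 37 were called lower, against 36.8% of all 14903 genes, and 28 of these fell at least 2-fold, against 21.8%. Another 9 were called higher, against 43.1% of all genes, none of them 2-fold. The median log2 fold change was -1.39, against 0.12 over all genes.

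CENPF fell from 90.2, 101 and 101 CPM in the 3 normoxic libraries to 5.99, 6.07 and 4.32 CPM in the 3 hypoxic ones (log2 fold change -4.16, SE 0.08, adjusted p = 1.21e-39). KIF15, a kinesin that helps to hold the spindle bipolar, stood at 10.00, 10.98 and 11.4 CPM in the normoxic libraries and 0.391, 0.696 and 0.669 CPM in the hypoxic libraries (log2 fold change -4.19, SE 0.21, adjusted p = 2.53e-26), the largest fall of the list. Neither gene's groups overlapped, and KIF15 had as few as 6 counts in hypoxia. CENPE went from 8.89, 10.4 and 10.1 CPM to 0.586, 0.633 and 0.912 CPM (log2 fold change -3.77, SE 0.22, adjusted p = 3.42e-23). TOP2A, the topoisomerase that untangles chromosomes, fell from 153, 155 and 151 CPM to 10.8, 11.96 and 11.7 CPM (log2 fold change -3.74, SE 0.06, adjusted p = 1.31e-47). MKI67, which encodes the proliferation antigen Ki-67 that coats mitotic chromosomes, fell from 118, 127 and 129 CPM to 15.7, 15.7 and 15.02 CPM (log2 fold change -3.01, SE 0.06, adjusted p = 6.88e-47). All 5 chromosome structure genes fell, by 2.76 to 3.74 on the log2 scale, as did all 7 kinesins, with KIF20A, which acts in cytokinesis, at -1.60 and KIF2C, a microtubule depolymerase, at -0.31. The other kinesins stood at -3.07 for the spindle motor KIF11, -3.32 for KIF23 of the central spindle, -3.46 for KIF18A and -2.35 for the chromokinesin KIF4A. The condensin genes SMC2, SMC4 and NCAPG stood at -2.90, -2.76 and -2.94.

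The checkpoint genes fell as well, all 5 of them, with the kinase BUB1 at -3.06, BUB1B at -3.16, the kinase TTK at -2.54, BUB3 at -0.92 and MAD2L1 at -0.48. In the outer kinetochore, which grips the microtubule, NDC80 fell from 11.2, 11.9 and 12.3 CPM to 2.02, 2.97 and 3.04 CPM (log2 fold change -2.13, SE 0.15, adjusted p = 1.2e-19) and the scaffold KNL1 fell by 2.74 on the log2 scale. NUF2 (-1.43) and SPC25 (-0.79), which form a complex with NDC80 and SPC24, fell too, and so did CENPK (-1.39) and CENPM (-0.33) of the inner kinetochore. SPC24 went the other way, from 32.6, 31.4 and 31.9 CPM to 44.7, 49.2 and 46.96 CPM (log2 fold change 0.55, SE 0.06, adjusted p = 3.29e-12), without overlap of the groups. SPC24 was thus the largest of the 9 rises. Among the mitotic kinases and cyclins CCNB1 (-1.08), CDK1 (-0.59) and the transcription factor gene FOXM1 (-0.25) fell, as did AURKA (-1.28), CCNA2 (-0.70) and CCNB2 (-0.45). The 7 kinesins had a median log2 fold change of -3.07. The spindle genes TPX2 (-1.15), ASPM (-3.37), HMMR (-2.17) and DLGAP5 (-3.01) fell, and so did ANLN (-3.41) and ECT2 (-3.54), both of which act in the contractile ring.

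The chromosomal passenger complex, which corrects faulty attachments, had 3 of 4 genes called higher: the survivin gene BIRC5 (log2 fold change 0.34, SE 0.03, adjusted p = 2.23e-14), INCENP (log2 fold change 0.29, SE 0.04, adjusted p = 3.94e-09) and the kinase gene AURKB (log2 fold change 0.12, SE 0.05, adjusted p = 0.0172). BIRC5 stood at 160.5, 155 and 158 CPM in normoxia and 198, 199 and 205 CPM in hypoxia. The groups of AURKB overlapped, at 84.2, 75.8 and 84.9 CPM and 83.5, 94.8 and 88.2 CPM. The other called rises were the centromeric histone CENPA (0.31), whose groups overlapped too, CDC25C, the phosphatase that activates CDK1 (0.25), PLK1 (0.18), CDC20 (0.23) and the securin gene PTTG1 (0.12). CDCA8 (0.08), UBE2C (0.04) and PRC1 (-0.96) did not pass the test.

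These hypoxia values moved with GC content and length. Over the 49 genes the log2 fold change had a Spearman correlation of 0.71 with GC content and -0.69 with exon length, and over 14816 genes the correlation with GC was 0.71; these are descriptions across genes, which share libraries and are not independent replicates. The 25 genes below the members' median GC content of 42.8% had a median log2 fold change of -2.94 and all were called lower. In the 24 at or above it the median was -0.28, with 12 called lower and all 9 of the calls higher. With a smooth GC and length correction the members' median became -0.79 and 21 falls reached 2-fold, and 29 of the 37 falls were again called lower, 5 turned into rises (BUB3, CCNA2, CDK1, MAD2L1 and SPC25) and 3 lost their call. CDCA8 (-0.21) and UBE2C (-0.43) were then called lower. Of the 9 rises, CDC25C and PTTG1 stayed, AURKB, CDC20, INCENP, PLK1 and SPC24 turned into falls and BIRC5 and CENPA lost their call. With library sizes alone in place of TMM, which moved the median of all genes from 0.12 to -0.36 on the log2 scale, 0 genes were called higher and 46 lower. Mitochondrial transcripts held 4.55 to 4.76% of the counts in normoxia and 9.12 to 9.57% in hypoxia; their part in the result was not tested.

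**Figure D2:**
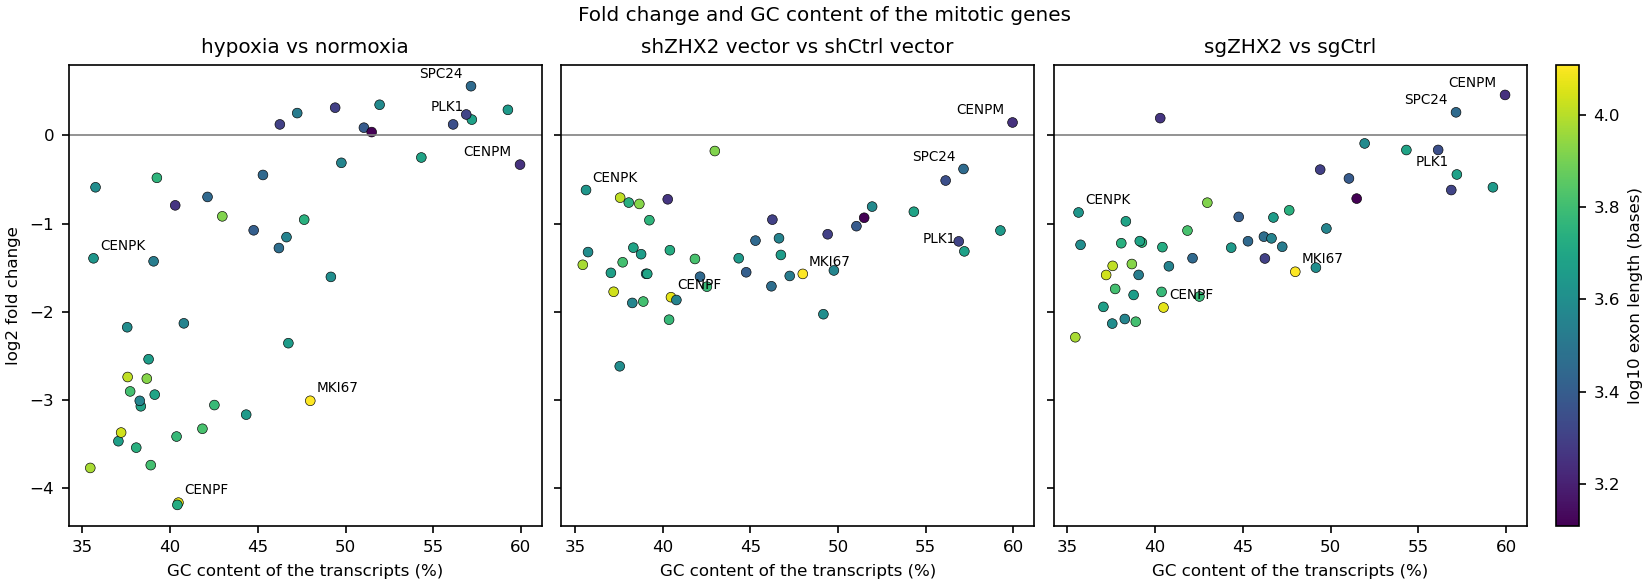
The log2 fold change of each tested gene (vertical axis) against the GC content of its transcripts (horizontal axis, percent) for hypoxia, for shZHX2 with vector and for sgZHX2; colour gives the log10 of exon length, and 6 genes are named. CENPF (-4.16) and SPC24 (0.55) lie at opposite ends in hypoxia, whereas nearly all genes lie below 0 in the other panels.

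Knockdown of ZHX2 in hypoxia lowered 40 of the 49 genes, against 33.2% of all genes called lower, and raised 2, against 33.6%. Of these falls 3 reached 2-fold, against 9.64% of all genes, and the median log2 fold change was -0.64 (0.02 over all genes). This comparison shares the hypoxic shCtrl libraries with the one above, so the values of the 2 stand side by side without a test of likeness.

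TPX2 fell from 82.3, 82.4 and 91.8 CPM in hypoxic shCtrl cells to 38.8, 37.2 and 37.5 CPM in hypoxic shZHX2 cells (log2 fold change -1.18, SE 0.05, adjusted p = 8.71e-31). PLK1 fell from 253, 255 and 262 CPM to 121, 125 and 126 CPM (log2 fold change -1.05, SE 0.03, adjusted p = 5.27e-36), and BIRC5 from 198, 199 and 205 CPM to 97.2, 96.7 and 96.4 CPM (log2 fold change -1.05, SE 0.03, adjusted p = 5.65e-35). In these 3 genes each shZHX2 library lay below each control library. All 8 entry genes were called lower, with CCNB1 at -0.94, CDC25C at -0.98, AURKA, the spindle pole kinase, at -0.76, CDK1 at -0.46 and FOXM1 at -0.35. So were all 4 passenger genes (AURKB -0.87, INCENP -0.66, CDCA8 -0.58), all 5 outer kinetochore genes (NDC80 -0.52, with overlapping groups) and all 3 partners of the anaphase-promoting complex (CDC20 -0.83, UBE2C -0.85, PTTG1 -0.78). BUB1 (-0.57, with overlapping groups), BUB3 (-0.19), KIF20A (-0.83), MKI67 (-0.63) and TOP2A (-0.51) fell too.

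The 2 rises were KIF15, from 0.391, 0.696 and 0.669 CPM to 0.924, 1.03 and 1.10 CPM (log2 fold change 0.79, SE 0.33, adjusted p = 0.0292), and CENPK of the inner kinetochore, from 4.17, 3.42 and 4.74 CPM to 6.47, 5.33 and 5.80 CPM (log2 fold change 0.51, SE 0.15, adjusted p = 0.00243). KIF15 had 6 to 20 counts in these libraries. Over the 49 genes the log2 fold change had a Spearman correlation of -0.53 with GC content, opposite in sign to hypoxia. Of 25 genes below the median GC content 17 were called lower and 2 higher, and of 24 at or above it 23 were called lower. With the GC and length correction 0 genes were called higher and 42 lower, 6 of them at least 2-fold. The count of rises was 1 without the first shCtrl, the second shZHX2 or the third shZHX2 library, and 5 with library sizes alone, a scaling that moved the median of all genes to 0.25. Genes not called were CENPE (-0.50), CENPF (0.19), TTK (0.17), KIF18A (0.21), SMC2 (0.13), SMC4 (-0.17) and PRC1 (-1.22). The mitochondrial share was 11.9 to 12.4% in shZHX2 cells, above that of their controls; its part was not tested.

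In the rescue table, shZHX2 cells with vector had lower RNA of nearly the whole list than shCtrl cells with vector. Of 48 genes tested 47 were called lower, against 35.3% of all genes, and 34 of these at least 2-fold, against 7.20%. The count called higher was 0, against 33.9% of all genes; DESeq2 also called 0 higher. The median log2 fold change was -1.34, against -0.01 over all genes.

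HMMR, a hyaluronan receptor that also binds spindle microtubules, fell from 6.49, 5.69 and 6.21 CPM in shCtrl vector cells to 0.858, 1.18 and 0.940 CPM in shZHX2 vector cells (log2 fold change -2.62, SE 0.18, adjusted p = 2.43e-22). ANLN, the anillin of the contractile ring, fell from 46.97, 52.1 and 50.2 CPM to 11.6, 11.8 and 11.7 CPM (log2 fold change -2.09, SE 0.06, adjusted p = 3.7e-45), and KIF20A from 39.2, 42.7 and 45.02 CPM to 9.84, 9.90 and 11.3 CPM (log2 fold change -2.03, SE 0.07, adjusted p = 7.19e-41). These were the largest 3 falls, with the HMMR level the lowest of them. CCNB1 fell from 70.4, 67.8 and 73.5 CPM to 24.8, 23.1 and 24.3 CPM (log2 fold change -1.55, SE 0.05, adjusted p = 1.01e-42), CDK1 by 1.32, PLK1 by 1.32 and FOXM1 by 0.87 on the log2 scale. TOP2A fell from 66.2, 69.4 and 73.8 CPM to 19.4, 18.2 and 19.2 CPM (log2 fold change -1.88, SE 0.05, adjusted p = 2.25e-45), and MKI67 from 63.6, 62.4 and 60.1 CPM to 20.4, 21.4 and 20.7 CPM (log2 fold change -1.57, SE 0.06, adjusted p = 4.31e-39). NDC80 (-1.87), CENPF (-1.83), BUB1 (-1.72), CDC20 (-1.20) and TPX2 (-1.17) fell more than 2-fold, and BIRC5 (-0.81), AURKB (-0.51), SPC24 (-0.38) and BUB3 (-0.18) less. CENPM of the inner kinetochore was the 1 tested gene not called (log2 fold change 0.14, SE 0.09, adjusted p = 0.142), so that the passenger genes (4 of 4), the entry genes (8 of 8), the outer kinetochore genes (5 of 5) and the kinesins (7 of 7) were all called lower. After the GC and length correction BUB3 lost its call (0.08) and the other 46 kept theirs.

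WT ZHX2 raised 41 of the 48 genes above shZHX2 cells with vector, against 35.1% of all genes called higher, and 16 of these at least 2-fold, against 7.12%. It lowered 2, SPC24 (-0.41) and CENPM (-0.34), against 34.6% of all genes. Over the list the median log2 fold change was 0.78. This comparison shares the vector libraries with the knockdown comparison, and the 2 results are not independent. All 41 had been called lower in knockdown, and 25.9% of all genes were called lower with knockdown and higher with WT.

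HMMR stood at 4.25, 5.09 and 4.38 CPM with WT (log2 fold change 2.19, SE 0.19, adjusted p = 2.96e-17), between its knockdown and control levels. ANLN reached 43.3, 45.3 and 45.7 CPM (log2 fold change 1.93, SE 0.06, adjusted p = 1.55e-42), close to the 46.97, 52.1 and 50.2 CPM of shCtrl cells. NUF2, a partner of NDC80, stood at 6.21, 7.56 and 7.66 CPM in shCtrl, 2.93, 1.90 and 2.45 CPM in knockdown and 7.70, 7.84 and 8.13 CPM with WT (log2 fold change 1.71, SE 0.14, adjusted p = 9.87e-19). The WT level of NUF2 was not called different from shCtrl (0.14). CENPE, at 0.353, 0.362 and 0.776 CPM in knockdown, stood at 1.94, 1.70 and 1.25 CPM with WT (log2 fold change 1.68, SE 0.30, adjusted p = 9.56e-07), from 7 to 41 counts per library. CCNB1 rose from 24.8, 23.1 and 24.3 CPM to 54.6, 52.3 and 55.3 CPM (log2 fold change 1.17, SE 0.05, adjusted p = 5.96e-34), and the checkpoint gene MAD2L1 from 46.5, 43.4 and 44.7 CPM to 92.6, 91.2 and 92.04 CPM (log2 fold change 1.04, SE 0.04, adjusted p = 1e-37). TOP2A rose from 19.4, 18.2 and 19.2 CPM to 33.5, 34.04 and 32.5 CPM (log2 fold change 0.82, SE 0.06, adjusted p = 3.42e-21), which was 28.3% of the way back to the shCtrl mean. Among the other genes followed throughout, CDK1 (1.24), NDC80 (1.12), BUB1 (1.004), CENPF (0.83), KIF20A (0.76), FOXM1 (0.44), TPX2 (0.42), CDC20 (0.31), BIRC5 (0.30) and BUB3 (0.22) rose. PLK1 was called higher at 0.16, but its groups overlapped (22.5, 24.4 and 23.2 CPM and 29.02, 24.6 and 24.4 CPM).

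MKI67 was not raised: it stood at 20.04, 19.4 and 21.6 CPM with WT (log2 fold change -0.04, SE 0.07, adjusted p = 0.611), near its vector level of 20.4, 21.4 and 20.7 CPM and below the 63.6, 62.4 and 60.1 CPM of shCtrl. AURKB (-0.03), INCENP (0.06), CDC25C (0.02) and the chromokinesin KIF4A (0.09) were not called either. Over the 47 genes that had fallen, the WT mean lay at a median of 45.2% of the way from the vector mean to the shCtrl mean, with an interquartile range of 24.2 to 72.8%. The share ran from -83.0% for SPC24 to 173.7% for CENPK. Between these it was 124.7% for TTK, 115.9% for NUF2 and 87.0% for ANLN, and -1.32% for MKI67, 0.160% for CDC25C and 7.67% for PLK1. Against shCtrl vector cells, 33 genes were called lower in WT cells (27.1% of all genes) and 1, CENPK (0.33), higher (27.1%); without the second shCtrl library 2 were higher. The largest of these falls were MKI67 (-1.61), CDC25C (-1.58) and KIF20A (-1.27).

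The WT effect also moved with GC content (Spearman correlation -0.75 over 48 genes, and -0.39 over 14227 genes). All 25 genes below the median GC content were called higher, and 16 of the 23 at or above it. After the correction the members' median was 0.50 and 5 rises reached 2-fold in place of 16. Of the 41 rises 34 were called again, and BUB1B, BUB3, KIF15, KIF23, KNL1, SMC4 and SPC25 lost their call. AURKB and INCENP then became called rises, while CDC25C, KIF4A and MKI67 remained uncalled. Mitochondrial transcripts held 0.785 to 0.807% of the counts in the vector cells and 0.312 to 0.333% in the WT cells; their part was not tested.

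With the PA and SA forms the list as a whole was not raised above shZHX2 vector cells. With PA, 8 genes were called higher and 12 lower than vector, against 24.7% and 22.9% of all genes, and none moved 2-fold. With SA, 9 were called higher and 10 lower, against 20.2% and 21.5%, again none 2-fold. The median log2 fold change over the list was 0.02 with PA and -0.0048 with SA, although ZHX2 RNA stood at 53.6 to 54.4 CPM and 78.4 to 82.9 CPM in these cells. The largest rise with PA was TTK (log2 fold change 0.64, SE 0.13, adjusted p = 2.22e-05), followed by CENPK (0.49) and NUF2 (0.49). With SA it was CDK1 (log2 fold change 0.72, SE 0.06, adjusted p = 3.42e-18), then CENPK (0.67) and HMMR (0.67). The largest called falls with PA were CENPM (-0.65), CDC20 (-0.57) and SPC24 (-0.55), and with SA KNL1 (-0.58), CENPM (-0.44) and PLK1 (-0.38). The other genes that PA raised were ANLN, CDK1, ECT2, KIF11 and MKI67. With SA they were ANLN, BUB3, KIF2C, MAD2L1, NUF2 and TTK.

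Set against WT itself, 41 genes were lower with PA, against 33.7% of all genes, and 39 with SA, against 32.0%. Of these, 11 and 13 fell at least 2-fold, against 5.34% and 4.08%. MKI67 alone was called higher with PA than with WT (log2 fold change 0.23, SE 0.06, adjusted p = 0.00115), against 33.2% of all genes, and 0 genes were with SA, against 32.1%; DESeq2 gave 0 for SA as well. KIF18A, which damps chromosome movement, had the lowest value in both (PA -1.78, SA -1.80), followed by HMMR (PA -1.77) and ANLN (PA -1.54, SA -1.69). HMMR stood at 1.65, 0.908 and 1.44 CPM with PA and 1.25, 1.66 and 1.84 CPM with SA. ANLN stood at 15.6, 15.3 and 15.1 CPM with PA and 12.9, 14.5 and 14.3 CPM with SA, so that no PA or SA library of either gene reached a WT library. MAD2L1 stood at 47.8, 47.9 and 45.99 CPM with PA and 67.1, 67.1 and 64.8 CPM with SA, the latter between knockdown and WT. Of the 41 genes that fell with knockdown and rose with WT, 36 were called lower than WT with both PA and SA, against 73.0% of all 3699 genes that fell and rose in this way. Genes chosen for a high level in the WT libraries are more likely to be called lower in any group set against the same libraries, so this count is given as a description. After the GC and length correction 1 gene was called higher and 14 lower than vector with PA, against 16.8% and 16.9% of all genes. With SA 4 were then called higher and 15 lower, against 13.3% and 12.5%. The members' medians became -0.13 with PA and -0.15 with SA. With library sizes alone the median of all genes against vector moved to 0.17 for PA, and 20 genes were then called higher than vector. The mitochondrial share was 1.16 to 1.26% with PA and 1.12 to 1.19% with SA, above that of vector and WT; its part was not tested.

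**Figure D3:**
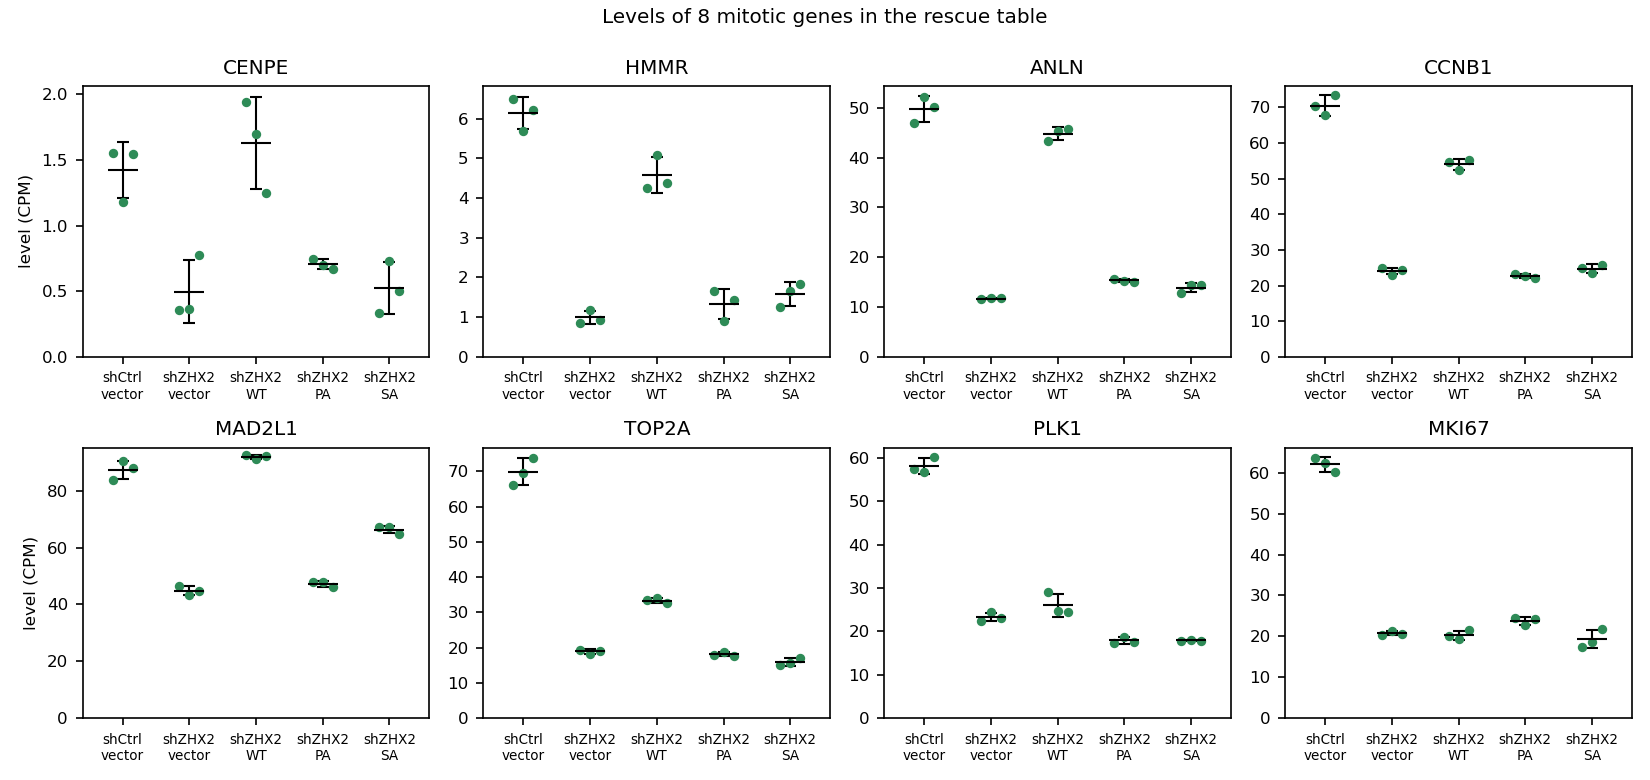
CPM of 8 genes in each library of the rescue table (points), with the mean and SD of 3 libraries (black lines); each vertical axis starts at 0. The WT libraries of HMMR, ANLN, CCNB1, TOP2A and MAD2L1 all lie above the vector libraries, those of MKI67 do not, and those of PLK1 overlap with them.

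In the sgRNA table most of these genes fell, although ZHX2 RNA did not. In sgZHX2 cells 46 of 49 genes were called lower than in sgCtrl cells, against 36.1% of all genes, 31 of them at least 2-fold, against 6.09%. In teton_sgZHX2 cells 46 were called lower than in teton_control, against 34.7%, 19 of them at least 2-fold, against 4.21%. Both comparisons called 3 genes higher, against 37.0% and 34.4% of all genes. The median log2 fold change was -1.22 for sgZHX2 and -0.95 for the teton pair, and the 2 pairs share no libraries.

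CENPE fell from 15.8, 15.3 and 14.9 CPM in sgCtrl to 3.45, 2.88 and 3.06 CPM in the sgZHX2 libraries (log2 fold change -2.29, SE 0.10, adjusted p = 1.37e-24), and from 16.2, 17.2 and 18.9 CPM to 5.45, 6.73 and 5.30 CPM in the teton pair (log2 fold change -1.57, SE 0.09, adjusted p = 6.24e-21). HMMR fell from 31.6, 30.1 and 31.9 CPM to 7.99, 5.95 and 7.30 CPM (log2 fold change -2.13, SE 0.07, adjusted p = 1.98e-29) and from 31.1, 30.9 and 29.5 CPM to 12.02, 11.2 and 11.8 CPM (log2 fold change -1.39, SE 0.06, adjusted p = 4.54e-24). TOP2A fell from 162, 166 and 163 CPM to 36.4, 38.98 and 38.3 CPM (log2 fold change -2.11, SE 0.03, adjusted p = 1.27e-40) and from 176, 183 and 185 CPM to 49.9, 48.6 and 49.8 CPM (log2 fold change -1.88, SE 0.03, adjusted p = 1.7e-39). In each pair of these genes no guide library reached a control library. CENPF (-1.95 and -1.75 in the teton pair), BUB1 (-1.83 and -1.28), KIF20A (-1.50 and -1.29), NDC80 (-1.48 and -0.95) and MKI67 (-1.55 and -1.07) fell. CDK1 (-1.24 and -0.92), TPX2 (-1.17 and -0.99), CCNB1 (-0.92 and -0.76), PRC1 (-0.85, with overlapping groups, and -0.88), BUB3 (-0.76 and -0.50) and CDC20 (-0.62 and -0.64) fell as well. Small called falls were seen for PLK1 (-0.44 and -0.35), FOXM1 (-0.17 and -0.17), AURKB (-0.17 and -0.16) and BIRC5 (-0.09 and -0.09, with overlapping groups in the teton pair).

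The genes called higher were CENPM, SPC24 and SPC25 in both pairs. CENPM stood at 10.2, 11.4 and 10.9 CPM in sgCtrl and 14.03, 15.7 and 14.9 CPM in the sgZHX2 libraries (log2 fold change 0.46, SE 0.08, adjusted p = 2.63e-06), and rose by a log2 fold change of 0.54 in the teton pair. SPC24 (0.26 and 0.23) and SPC25 (0.19 and 0.30) belong to the complex of NDC80 and NUF2, which fell. After the GC and length correction SPC25 alone was still called higher; SPC24 was then called lower (-0.18 and -0.11) and CENPM was not called. The falls of at least 2-fold numbered 24 with sgZHX2 and 10 in the teton pair after the correction. All 46 falls with sgZHX2 and 45 of the 46 in the teton pair were called again, CENPK being the exception. The members' log2 fold changes had Spearman correlations with GC content of 0.68 for sgZHX2 and 0.61 for the teton pair (n = 49). Mitochondrial transcripts held 2.51 to 2.95% of the counts in both controls and 1.67 to 1.82% in both guide groups; their part was not tested.

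The effect of sgZHX2 itself differed between the pairs for 29 of the 49 genes, tested as the difference of the 2 log2 fold changes, and in all 29 the fall was smaller in the teton pair. Among all genes 12.0% had a difference called higher and 8.33% lower, and 0 of the 49 were called lower (DESeq2 also gave 0). HMMR had a difference of 0.74 with an SE of 0.10, CENPE of 0.72 with an SE of 0.14 and TTK of 0.63 with an SE of 0.09. With the GC and length correction, 14 differences were called higher, 13 of them among the 29, against 5.03% of all genes.

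**Figure D4:**
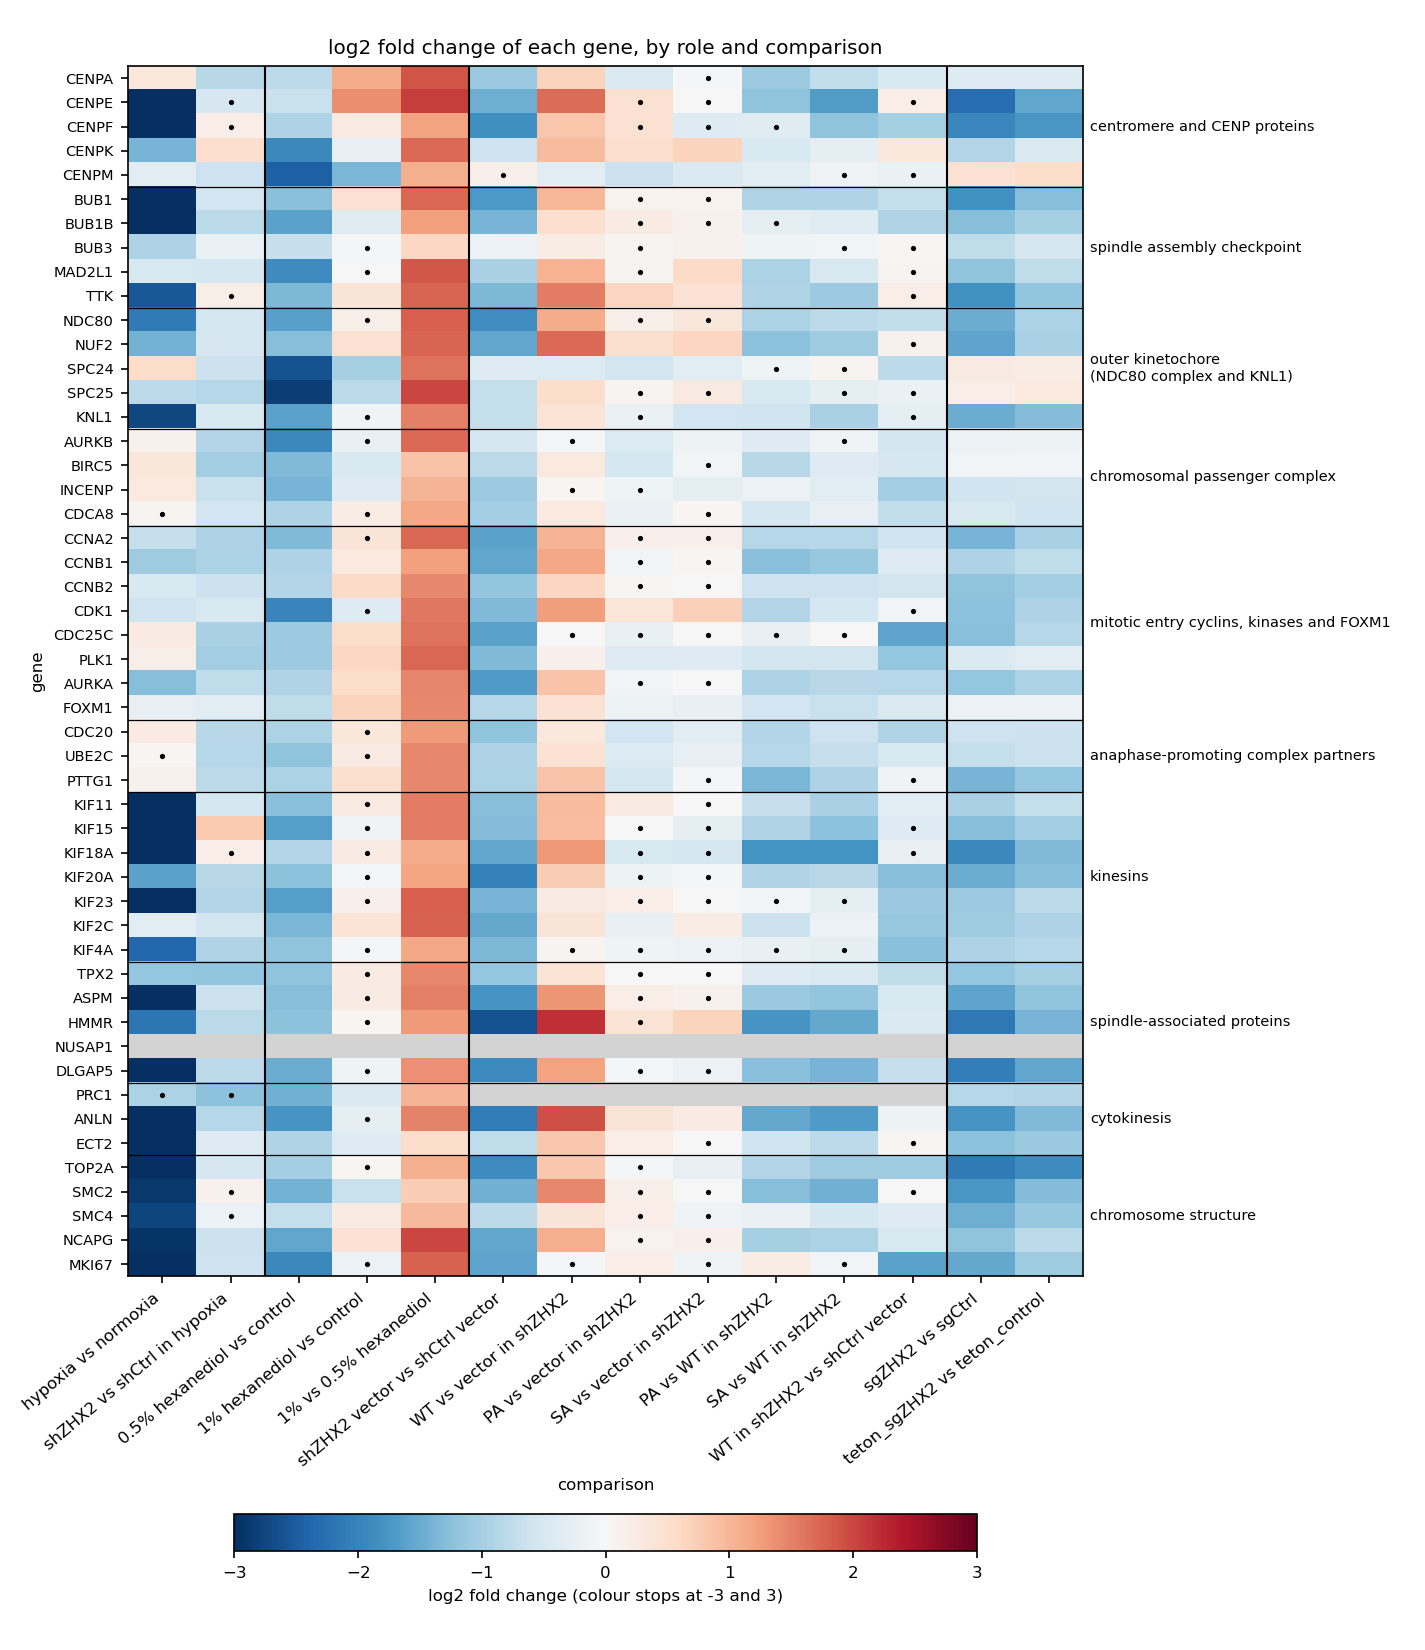
Colour gives the log2 fold change of each of the 50 genes (rows, grouped by role) in 14 comparisons (columns); black dots mark values that did not pass the test and grey marks genes not tested. The columns for shZHX2 vector, sgZHX2, teton_sgZHX2 and 0.5% hexanediol are blue almost throughout, and the 1% against 0.5% column is red in all 49 tested genes.

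Across the 4 comparisons of ZHX2 hairpins or guides with their controls, 37 of the 48 genes tested in all of them were called lower in each, against 7.54% of the 13004 genes tested in all of them. Another 8 were called lower in 3 of the 4, against 17.3% of all genes: CENPE, CENPF, CENPK, KIF15, KIF18A, SMC2, SMC4 and TTK, all of them not called lower in the shRNA table. All 8 lie below the members' median GC content of 42.8%, and in that table fold changes ran against GC content (Spearman correlation -0.53). The correlation was positive elsewhere, at 0.29 with shZHX2 vector, 0.68 with sgZHX2 and 0.61 in the teton pair. After the GC and length correction CENPE and SMC4 were called lower in the shRNA table too. The part of GC content was not tested. CENPK, CENPM, KIF15, SPC24 and SPC25 were called higher in at least 1. The 4 controls are separate libraries.

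The 2 doses of hexanediol gave different pictures. With 0.5% all 49 tested genes were called lower than in the hypoxic control, against 19.6% of all genes, and 35 of these at least 2-fold, against 4.62%. The count called higher was 0, against 19.4% of all genes (DESeq2 also gave 0). With 1%, 16 genes were called higher and 10 lower than in the control, against 30.2% and 32.3% of all genes. The median log2 fold change was -1.27 with 0.5% and 0.17 with 1%. Compared with each other, all 49 genes were higher with 1% than with 0.5% (28.3% of all genes), 44 of them at least 2-fold (8.94%), and 0 were lower (27.7%).

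SPC25 fell from 70.5, 73.6 and 69.3 CPM in the control to 12.1, 6.82 and 11.1 CPM with 0.5% (log2 fold change -2.83, SE 0.15, adjusted p = 2.56e-08), and stood at 41.2, 38.5 and 41.6 CPM with 1% (log2 fold change -0.82, SE 0.13, adjusted p = 0.000118). SPC24 fell from 53.7, 58.4 and 54.7 CPM to 9.93, 6.09 and 11.1 CPM (log2 fold change -2.62, SE 0.15, adjusted p = 4.88e-08) and stood at 26.7, 28.7 and 27.8 CPM with 1% (log2 fold change -1.003, SE 0.14, adjusted p = 2.64e-05). CENPM went from 10.8, 12.7 and 9.52 CPM to 2.13, 1.92 and 1.95 CPM (log2 fold change -2.45, SE 0.17, adjusted p = 6.35e-08) and to 4.08, 4.67 and 3.98 CPM with 1% (log2 fold change -1.37, SE 0.15, adjusted p = 1.33e-06). These genes had 0.5% below 1% and 1% below the control, with no overlap. CENPE behaved otherwise, with 117, 116 and 121 CPM in the control, 81.8, 52.1 and 89.6 CPM with 0.5% (log2 fold change -0.66, SE 0.16, adjusted p = 0.00753) and 316, 304 and 316 CPM with 1% (log2 fold change 1.41, SE 0.16, adjusted p = 1.9e-05). PLK1 stood at 80.7, 83.5 and 84.4 CPM, 45.3, 25.1 and 46.5 CPM with 0.5% (log2 fold change -1.09, SE 0.20, adjusted p = 0.00234) and 119.8, 138 and 124 CPM with 1% (log2 fold change 0.62, SE 0.19, adjusted p = 0.0181). In both genes the 1% libraries lay above the control and the 0.5% libraries below it.

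TOP2A was at 564, 546 and 566 CPM in the control, 327, 166 and 339 CPM with 0.5% (log2 fold change -1.01, SE 0.24, adjusted p = 0.0133) and 571, 585 and 580.4 CPM with 1%, where it was not called (0.05). MKI67 fell from 803, 745 and 866 CPM to 229.8, 155 and 249 CPM with 0.5% (log2 fold change -1.93, SE 0.16, adjusted p = 7.87e-06) and was not called with 1% (-0.17). Both were thus low with the lower dose alone. With 0.5%, CDK1 (-1.99), AURKB (-1.93), NDC80 (-1.62), PRC1 (-1.44), BIRC5 (-1.33), BUB1 (-1.25), KIF20A (-1.23) and TPX2 (-1.21) fell more than 2-fold, and CDC20 (-0.94), CCNB1 (-0.93), CENPF (-0.93), FOXM1 (-0.76) and BUB3 (-0.68) less.

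With 1%, 6 of the 8 entry genes were called higher than in the control: AURKA (0.54), CCNB1 (0.29), CCNB2 (0.57), CDC25C (0.53), PLK1 and FOXM1 (log2 fold change 0.68, SE 0.07, adjusted p = 8.77e-07). The others were BUB1 (0.46), CENPA (log2 fold change 1.11, SE 0.15, adjusted p = 1.43e-05), CENPE, CENPF (0.28), KIF2C (0.41), NCAPG of condensin (0.44), NUF2 (0.47), PTTG1 (0.49), SMC4 (0.25) and TTK (0.38). Besides SPC24, SPC25 and CENPM, the genes called lower were BIRC5 (-0.47), BUB1B (-0.37), CENPK (-0.25), ECT2 (-0.38), INCENP (-0.38), PRC1 (-0.43) and SMC2 (-0.67). AURKB (-0.23), BUB3 (-0.05), CDC20 (0.33), CDK1 (-0.40), KIF20A (-0.05), NDC80 (0.17) and TPX2 (0.24) did not pass the test.

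The second 0.5% library had the lowest value of its group in 48 of 49 genes, and a summed level of 2980 CPM against 4155 and 4388 CPM in the other two. Without the second library of both doses all 49 genes were still called lower with 0.5%, and the count called higher with 1% rose from 16 to 27. That count was 9 without the first control library, 10 without the third, 26 when the control and 1% groups were fitted alone, and 10 after the GC and length correction, so the number of genes raised by 1% is uncertain.

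**Figure D5:**
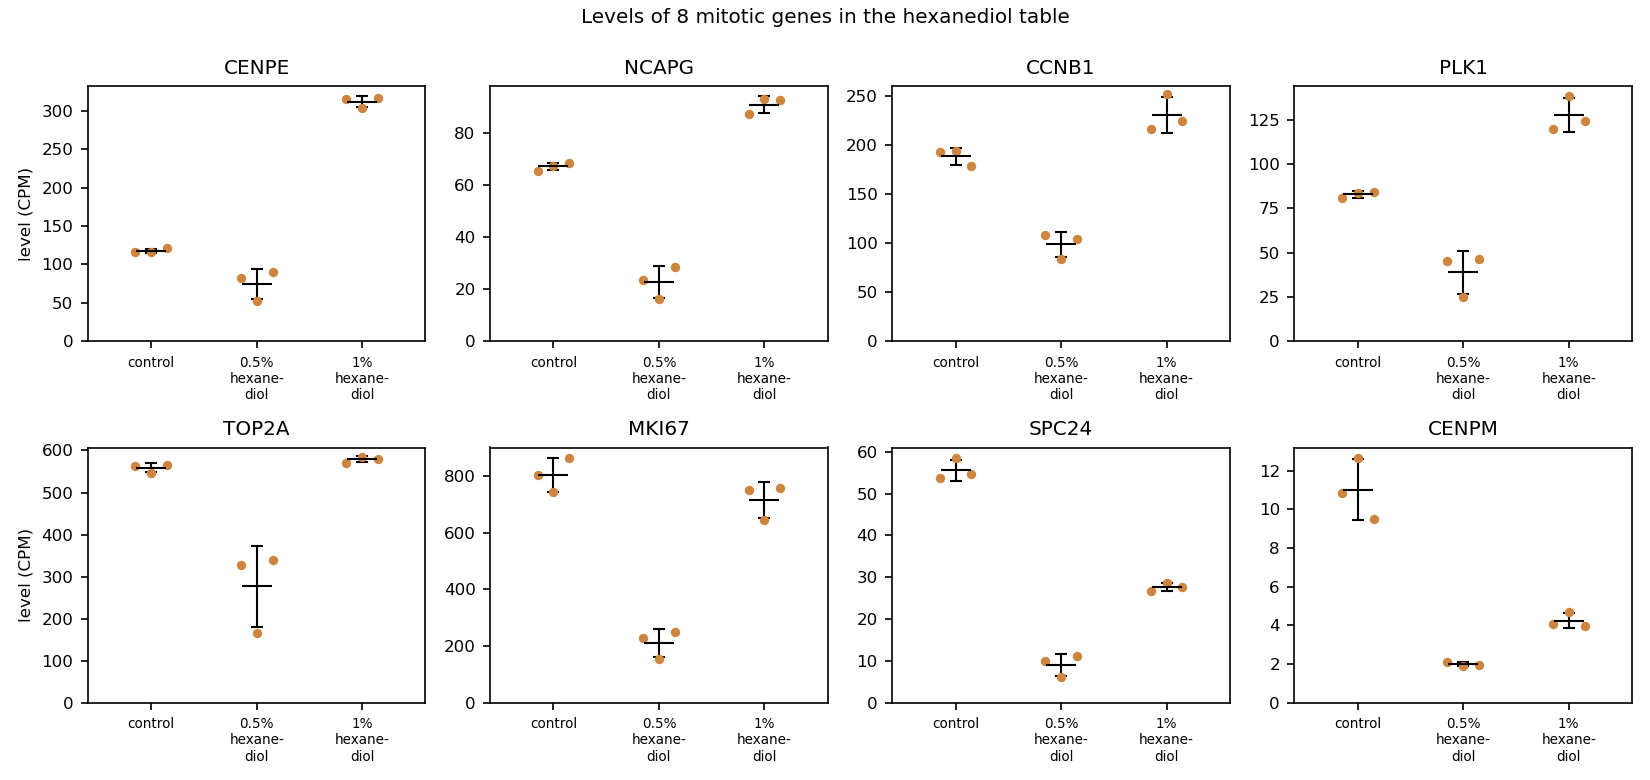
CPM of 8 genes in each library of the hexanediol table (points), with the mean and SD of 3 libraries (black lines); each vertical axis starts at 0. All 8 genes are lowest with 0.5%, CENPE and PLK1 are highest with 1%, and SPC24 and CENPM stay below the control at both doses.

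A further 102 genes of the cell cycle were followed in 6 lists. Their counts are to be read against the shares of all genes given above, which were 35.3% lower and 33.9% higher with shZHX2 vector, 35.1% higher and 34.6% lower with WT, and 19.6% lower and 19.4% higher with 0.5% hexanediol. Of 17 other mitotic kinesins and spindle genes, 16 were called lower and 1 higher with shZHX2 vector, among them FAM83D (-2.29) and the centrosomal kinase gene NEK2 (-2.04); the one higher was MAD1L1 (0.79). All 15 other cytokinesis and condensin genes were called lower there, with SGO2 at -1.45 and RACGAP1 at -1.24, and 15 of 24 other kinetochore genes, with the CENPA chaperone gene HJURP at -1.68. Of 17 subunits and regulators of the anaphase-promoting complex, 10 were lower and 4 higher. With WT, 12, 8 and 13 genes of the first 3 lists were called higher and 1, 4 and 1 lower. With 0.5% hexanediol 15 of 16, 14 of 15 and 21 of 24 were called lower, and 1 kinetochore gene higher. The list of MuvB components and other cell cycle transcription factors, E2F and NF-Y genes among them, was mixed with shZHX2 vector (5 higher and 10 lower of 17). With 0.5% hexanediol 9 of these 17 genes fell and 2 rose. E2F1 stood at -3.05 and MYBL2, which encodes the activator B-MYB, at -2.64. In hypoxia, 8 of the 17 other mitotic kinesins and spindle genes were called higher and 8 lower, with a median log2 fold change of 0.02. In these uncorrected values the hypoxia fall of the kinesins described above was not general to this list. Hypoxia values moved with GC content, and the part of GC content in this contrast was not tested. Of the 15 other cytokinesis and condensin genes 3 were higher and 10 lower, and of the 24 other kinetochore genes 2 and 17. Over all 102 genes 27 were higher and 60 lower, against 43.1% and 36.8% of all genes.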

How the data were processed

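PolyA-selected RNA was sequenced with paired ends, per the labels' protocols. RNA-seq read counts per gene, as deposited by the authors in 4 tables of raw counts, were used for all 45 libraries. The submitters' processing notes name FastQC, HISAT2, featureCounts, DESeq2 and hg38; versions, annotation and strand setting were not given in the sources used here. Each table was fitted with edgeR 4.0.16 (filterByExpr, TMM, robust quasi-likelihood test, 1 model per table with all its groups), and p-values were adjusted over all its tested genes by Benjamini-Hochberg. The biological coefficient of variation was 4.15, 10.2, 3.16 and 2.81% in the shRNA, hexanediol, rescue and sgRNA tables. SE is the log2 fold change divided by the root of the F statistic. TPM and GC content used GENCODE 29 exon lengths and sequences. The fits were tested on simulated data. Same-numbered libraries of the 2 hexanediol doses had correlated deviations (0.27, 0.47 and 0.27). The highest correlation between libraries of unlike number was 0.266, so the second libraries alone stood out and a pairing by number is not shown. The main fits used no pairing, and the numbers entered only through the replicate block among the alternatives. Named genes were, per comparison, the 3 largest called rises and falls, called genes against the majority and 16 fixed representatives; further genes were named after their values were seen. Members, lists and tests were chosen with earlier results of these data known. Alternatives were other size factors, DESeq2, no low-count filter, a replicate block, a GC and length correction, fits of the compared groups alone and leaving libraries out.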

Additional observations from a re-analysis of the deposited data

Results flagged for a closer look

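The fall of 29 of the 49 genes after sgZHX2 was smaller in the teton pair than in the other pair, by a test of the difference of the 2 log2 fold changes (edgeR quasi-likelihood test, Benjamini-Hochberg adjusted). Among the named genes the difference (teton minus the other pair) was 0.74 for HMMR, 0.72 for CENPE and 0.63 for TTK. It was 0.55 for the checkpoint kinase BUB1 and 0.27 for BUB3, 0.53 for NDC80, 0.16 for CCNB1 and 0.33 for CDK1. It was 0.21 for KIF20A, 0.18 for TPX2, 0.24 for TOP2A and 0.48 for MKI67. The differences moved with GC content (Spearman correlation -0.73 over the 49 genes, and -0.50 over 15667 genes). After the GC and length correction 14 genes were called higher, against 5.03% of all genes. These were 13 of the 29 and PLK1. Of the genes named here, CCNB1, CDK1, KIF20A, NDC80, TOP2A and TPX2 lost their call. The cause was not tested.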

How the results depend on the processing

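Counted at any size, the falls with shZHX2 vector, sgZHX2, teton_sgZHX2 and 0.5% hexanediol, and the rises from 0.5% to 1%, stayed within 1.5 times their counts under every alternative run. The falls of at least 2-fold in the teton pair did not, at 10 with the GC and length correction against 19, nor did the rises of that size with WT, at 5 against 16. Falls of that size with shZHX2 in hypoxia numbered 6 with the correction and 0 with library sizes alone, against 3, and those of PA against WT 7 with library sizes alone, against 11. With the GC and length correction, the counts called higher became 10 with 1% hexanediol, 0 with shZHX2 in hypoxia, 1 with PA and 4 with SA against vector, 0 for PA against WT, 0 for WT against shCtrl, 1 with sgZHX2, 1 in the teton pair and 14 for the difference of the sgZHX2 effects; the count lower with WT became 1. These counts were the same with the replicate block added. With library sizes alone, the counts called higher were 0 in hypoxia, 5 with shZHX2 in hypoxia, 20 with PA, 2 for PA against WT, 1 for SA against WT and 0 for WT against shCtrl, and 6 were lower with 1% hexanediol. That scaling moved the share of all calls that were higher from 53.9 to 29.6% in hypoxia, from 50.3 to 67.6% with shZHX2 in hypoxia and from 52.0 to 76.4% with PA. It became 66.0% with 0.5% and 59.8% with 1% hexanediol, 70.6% for PA and 59.6% for SA against WT, 34.1% for WT against shCtrl and 65.4% for the difference of the sgZHX2 effects. DESeq2 called 5 higher in hypoxia. Without a low-count filter 25 were higher with 1% hexanediol and 1 with shZHX2 in hypoxia. Fits of the compared groups alone gave 26 and 1, and 5 in hypoxia, and leaving out both second treated libraries gave 27 with 1%. Leaving out 1 library gave 9 to 12 higher with 1% hexanediol (9 without the first control library), 1 to 2 with shZHX2 in hypoxia and 1 to 2 for WT against shCtrl.

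Among the values followed as named results, those that changed sign with the GC and length correction (the block added gave the same as rounded here unless stated) were, in hypoxia, AURKB -0.58, BUB3 0.30, CDC20 -0.52, CDK1 0.97, INCENP -0.45, PLK1 -0.46 and SPC24 -0.16. In the rescue table they were BUB3 0.078 with shZHX2 vector, AURKB 0.14 and BUB3 -0.017 (-0.015) with WT, BUB3 -0.16, ECT2 -0.12 (-0.11 with the block) and KIF11 -0.039 with PA, and CCNB1 -0.15 and BUB3 -0.0098 (-0.0084) with SA. In the sgRNA table they were CENPM -0.057 (-0.055) and SPC24 -0.18 with sgZHX2 and SPC24 -0.11 in the teton pair. With 1% hexanediol they were CENPF -0.059 (-0.058), INCENP 0.0056 (0.0093) and the members' median -0.059 (-0.054). Among the other called members the correction also turned, in hypoxia, CENPK to 0.18, MAD2L1 to 1.01, SPC25 to 0.41, CCNA2 to 0.38 and CCNB2 to 0.11. It turned KNL1 (-0.047), KIF23 (-0.0084) and SMC4 (-0.021) with WT, SMC4 (-0.10) with 1% hexanediol and CENPK (0.014) for SA against WT. With library sizes alone the named values that changed sign were, in hypoxia, AURKB -0.36, BIRC5 -0.14, CDC20 -0.25, CDC25C -0.23, CENPA -0.17, INCENP -0.20, PLK1 -0.31 and PTTG1 -0.36. BUB3 became 0.11 for PA against WT and 0.041 with shZHX2 in hypoxia, and FOXM1 0.0060 with PA. The cause was not tested. With the replicate block, 13 genes were called higher and 11 lower with 1% hexanediol, and 2 of 302 named values lost and 1 gained a call. Apart from the second libraries of the 2 hexanediol doses, the libraries share only a number, although all 6 of the teton pair correlated best with their own. With 3 libraries a group, low genes such as KIF15, CENPE and KIF18A have wide errors.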

Other observations

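Cyclin-dependent kinase inhibitors and G1 cyclins were followed beside the mitotic genes. CDKN1A, which encodes the cyclin-dependent kinase inhibitor p21, was 1.10 (log2 fold change) with shZHX2 vector and -1.01 with WT against vector, and rose by 1.38 in hypoxia. CDKN1B, which encodes p27, went the other way in the rescue table, at -1.02 with shZHX2 vector and 1.05 with WT. Both inhibitors rose with shZHX2 in the shRNA table (0.36 and 0.74), so CDKN1B had opposite signs in the 2 knockdowns. With guides, CDKN1A rose by 0.22 and CDKN1B fell (-0.70). Of 11 cyclin-dependent kinase inhibitors and G1 cyclins tested, 4 were called higher and 4 lower with shZHX2 vector, near the 33.9% and 35.3% of all genes. With 0.5% hexanediol 1 was called higher and 9 lower, against 19.4% and 19.6% of all genes.

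The hexanediol doses also parted on this list. CDKN1A was -0.999 with 0.5% and 1.24 with 1% against the control. Cyclin D1 (CCND1) fell with both, by log2 fold changes of -1.02 and -3.06, and was lower with 1% than with 0.5% (-2.04), opposite in sign to all 49 mitotic genes. Cyclin E2 (CCNE2) was -2.68 with 0.5% and -1.90 with 1%. All values named passed the edgeR quasi-likelihood test, and they were chosen after they were seen.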
